A study of Mus musculus with 6 samples.

Results

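Mature oligodendrocytes without Enpp6 transcripts were selected from single nuclei of the mouse hippocampus and described across HDAC inhibitor treatment. A nucleus was a member when its raw counts of unique molecular identifiers (UMIs) met a gate with 14 genes. The gate asked for at least 3 UMIs summed over the 5 oligodendrocyte genes Mog, Mag, Mobp, Aspa and Prr5l and for no UMI of Enpp6, a gene of newly formed oligodendrocytes. It allowed at most 2 UMIs summed over the neuronal genes Slc17a7, Snap25, Gad1 and Gad2, at most 1 over the precursor genes Pdgfra and Cspg4, and at most 1 over the microglial genes Csf1r and Inpp5d. Nuclei were kept with 500 or more genes and no more than 5% of UMIs from mitochondria. Of 27766 kept nuclei, 2636 were members, which is 9.49%.

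The study asked how CI-994, which blocks class I histone deacetylases and is labelled HDACi, changes transcription in hippocampal cell types after contextual fear conditioning. There were 2 HDACi-CFC, 2 Veh-CFC, 1 HDACi-Context and 1 Veh-Context libraries, and each pooled nuclei from 5 male 12-week-old C57BL/6J mice, so that 30 mice were used. CI-994 at 30 mg/kg or its vehicle of DMSO, Kolliphor and saline was injected into the abdomen 1 h before the exposure, and the mice were killed 1 h after it. CFC mice received 2 foot shocks of 0.2 mA in the chamber, and Context mice were placed there without one. Every mouse was injected and exposed to the chamber, so no group was left undisturbed. The tissue is labelled hippocampus (DG), and the nuclei were isolated in a buffer with actinomycin D, which blocks transcription. The title and treatment label of one library say vehicle while its description names the inhibitor, and it is called the library labelled Veh-Context here. Replicates are pools of mice, so p-values measure the spread between these libraries only.

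Oligodendrocytes wrap axons in myelin, a stack of membrane that speeds conduction, and supply axons with lactate and other metabolites. They arise from dividing precursors that carry Pdgfra and Cspg4, pass through a short Enpp6-positive stage, and then express the myelin proteins at a high level under the transcription factors Sox10, Olig2 and Myrf. Histone deacetylases remove acetyl groups from histones and other proteins, and the class I enzymes Hdac1 and Hdac2 are needed in the mouse for precursors to become oligodendrocytes.

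The members numbered 323 and 479 in HDACi-CFC, 410 and 481 in Veh-CFC, 452 in HDACi-Context and 491 in the library labelled Veh-Context. In the same order they held 647721 and 1111198 UMIs, 935796 and 1279007 UMIs, 1095671 UMIs and 1129401 UMIs. A member nucleus had a median of 1819 and 2181 UMIs in HDACi-CFC, 2065.5 and 2432 in Veh-CFC, 2206.5 in HDACi-Context and 2075 in the library labelled Veh-Context. Other kept nuclei were deeper, with medians of 5890.5 to 7654.5 UMIs over the 6 libraries. Scrublet called 34 of the 2636 members doublets, and they were kept. Any 2 libraries shared 1 to 11 barcodes, and 1 member barcode was shared by 1 pair of libraries. The 2 Context libraries stood apart from the CFC libraries in a few genes. Gm42418, an unnamed gene model, had 11772 unscaled CPM (UMIs of the gene scaled to the same total of member UMIs in each library) in HDACi-Context and 11455 for the library labelled Veh-Context, against 459 and 354 in HDACi-CFC and 402 and 301 in Veh-CFC, and was named after its values were seen. CFC was therefore never set against Context here, since library set and exposure cannot be told apart.

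The oligodendrocyte markers bore out the label. Cldn11, a claudin that seals the myelin layers and no gate gene, had 487 to 1103 CPM in members against 14.1 to 34.7 CPM in the other kept nuclei. The 5 oligodendrocyte markers outside the gate summed to 9289 to 10614 CPM in members and 284 to 346 CPM in the other nuclei. Marker lists of other cells, taken outside the gate genes, were not all low in members. Precursor markers summed to 60.2 to 164 CPM in members and 346 to 456 CPM in the other nuclei, and excitatory neuron markers to 350 to 804 CPM in members and 4088 to 5721 CPM in the other nuclei. Dentate granule markers summed to 477 to 706 CPM in members and 512 to 840 CPM in the other nuclei, and astrocyte markers to 231 to 672 CPM in members and 386 to 714 CPM in the other nuclei, so these lists overlapped. Markers of newly formed oligodendrocytes were higher in members, at 630 to 1351 CPM against 67.9 to 106 CPM, most of it Bcas1 at 580 to 1317 CPM, while Neu4 of the same list stayed at 0 to 1.80 CPM. Interneuron markers were higher too, at 2050 to 2668 CPM against 645 to 809 CPM, most of it Erbb4 at 1825 to 2302 CPM. At the edge of the gate, the 75 nuclei with a marker sum of 2 that met every other condition had 112 CPM of Mbp (myelin basic protein) together, and the 26 nuclei with a sum of 3 had 731 CPM. The sum of 4 was reached by 21 nuclei, which had 2702.5 CPM.

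The genes that set members most apart from other nuclei were ranked by their log2 ratio of unscaled CPM, among genes with at least 50 CPM in members in every library. These values chose the members in part and are given without a test. Tnni1, which encodes slow skeletal troponin I and is no myelin component, headed the list with a log2 ratio of 6.02, at 178 to 441 CPM in members and 1.82 to 6.31 CPM in the other nuclei. The gate genes Mobp, Aspa, Prr5l, Mag and Mog followed or lay close, with log2 ratios of 5.81 to 6.00. Fbxw15, a member of the F-box family, had a log2 ratio of 5.82, and Opalin, a membrane glycoprotein of oligodendrocytes, 5.69. The other named genes reached log2 ratios of 5.38 to 5.75 and were Plekhh1, Slc13a1, Tnfaip6, Tspan2, Fa2h, Sec14l5, Pde8a, Hapln2, D7Ertd443e, Galnt5 and Ermn. Fa2h makes the hydroxylated fatty acids of myelin lipids, and Hapln2 links matrix at nodes of Ranvier.

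**Figure D1:**
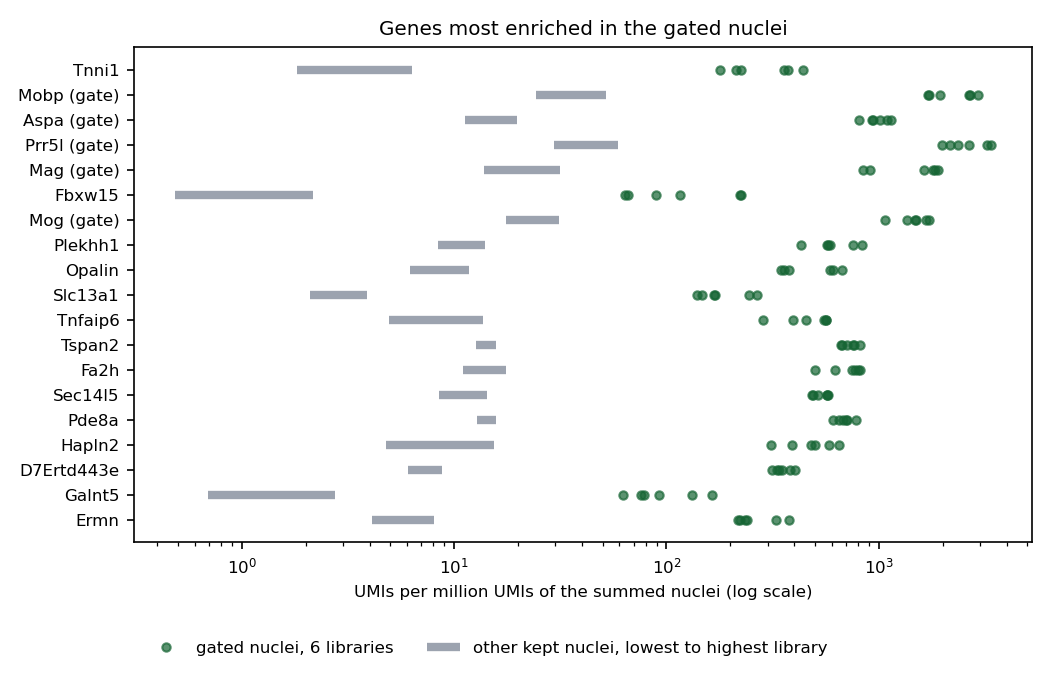
Unscaled CPM (log axis) of 19 genes among the 20 with the highest ratio of members over other kept nuclei, with 1 green point for members of each of the 6 libraries and a grey bar from the lowest to the highest library in the other nuclei. The title calls members gated nuclei. In Tnni1 the members lie at 178 to 441 CPM and the other nuclei at 1.82 to 6.31 CPM.

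Members made up 8.63% (95% exact binomial interval 7.75 to 9.58) and 9.40% (8.61 to 10.2) of kept nuclei in HDACi-CFC, and 10.8% (9.83 to 11.8) and 10.3% (9.47 to 11.2) in Veh-CFC. They made up 8.26% (7.54 to 9.02) in HDACi-Context and 9.82% (9.01 to 10.7) in the library labelled Veh-Context. Each HDACi share lay below the Veh shares of its exposure, and the intervals cover counting error only. A set of 2 libraries against 2 cannot give an exact two-sided p below 0.333, so no test was run. Kept nuclei with at least 1500 UMIs were also thinned to that depth and gated again, so the set of nuclei changed. This left out 79 and 40 members in HDACi-CFC and 48 and 24 in Veh-CFC. It left out 54 in HDACi-Context and 74 in the library labelled Veh-Context. The shares were then 8.02% and 10.5% in HDACi-CFC and 11.2% and 11.4% in Veh-CFC. They were 8.58% in HDACi-Context and 9.73% for the library labelled Veh-Context. With a minimum of 1000 genes they were 4.54% and 7.33% in HDACi-CFC and 9.83% and 10.0% in Veh-CFC. The gap widened under that minimum, which removes nuclei by the number of genes seen.

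That number itself differed by treatment. Each member with at least 1500 UMIs was thinned to that depth. A median of 838 and 852 genes was then detected in HDACi-CFC, 939 and 941 in Veh-CFC, 858 in HDACi-Context and 960 in the library labelled Veh-Context. The 3 HDACi libraries thus lay below the 3 Veh libraries with no overlap. Other kept nuclei showed the same order, with 902 and 904 genes in HDACi-CFC, 1001 and 1006 in Veh-CFC, 914 in HDACi-Context and 1000 in the library labelled Veh-Context. These medians rest on 244 and 439 members in HDACi-CFC, 362 and 457 in Veh-CFC, 398 in HDACi-Context and 417 in the library labelled Veh-Context.

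**Figure D2:**
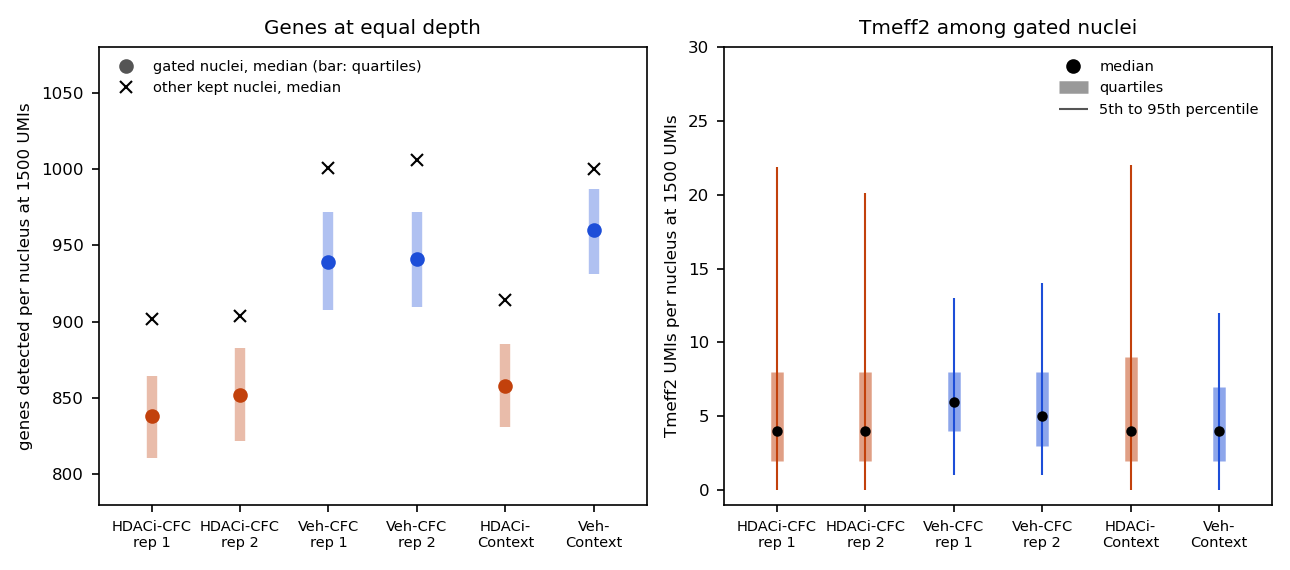
Values at 1500 UMIs per nucleus in the 6 libraries, HDACi in orange left of Veh in blue within each exposure. The left panel has genes detected per nucleus (points for the median and bars for the quartiles of members, crosses for the median of other nuclei), and the right panel Tmeff2 UMIs per member (points for the median, thick bars for the quartiles, thin lines for the 5th to 95th percentile). Members have a median of 838 to 858 genes in HDACi libraries and 939 to 960 in Veh libraries.

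Nuclei that passed the same gate but carried at least 1 Enpp6 UMI numbered 511. They made up 17.8% and 18.8% of the gate with Enpp6 ignored in HDACi-CFC, 13.7% and 15.8% in Veh-CFC, 18.1% in HDACi-Context and 13.3% in the library labelled Veh-Context. Among nuclei with at least 1500 UMIs, thinned to that depth and gated again, these shares were 17.0% and 12.7% in HDACi-CFC and 10.6% and 11.0% in Veh-CFC. They were 15.6% in HDACi-Context and 10.0% in the library labelled Veh-Context. The HDACi shares lay above the Veh shares in both readings, without a test. Several stage genes were lower in members than in Enpp6-positive nuclei. Frmd4a, a scaffold protein, had 227 and 193 CPM in members of HDACi-CFC and 145 and 130 CPM in members of Veh-CFC, against 4235 and 2782 CPM in Enpp6-positive nuclei of HDACi-CFC and 2453 and 2670 CPM in those of Veh-CFC. Tnr (tenascin-R), the transcription factor Tcf7l2, Tmem108 and the kinase Fyn were also lower in members in all 6 libraries, without a test. Bcas1 and Rnf122, of the same stage, were lower by little in all 6, with mean log2 ratios of -0.47 and -0.52. Ptgds, a prostaglandin D synthase that marks a mature oligodendrocyte subtype, went the other way, at 3623 to 7301 CPM in members against 974 to 2297 CPM in Enpp6-positive nuclei over the 6 libraries. Slc13a1, Man1a, Kirrel3, Il33 and Apoe were also higher in members in all 6 libraries. Genes of this paragraph were chosen for their values and carry no test.

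In the conditioned mice a large part of the members' transcriptome differed between CI-994 and vehicle. Of 9473 genes tested with edgeR's quasi-likelihood test on the 4 CFC libraries, 1738 were higher in HDACi-CFC and 1430 lower at a Benjamini-Hochberg adjusted p below 0.05, which are 18.3% and 15.1% of the genes tested. Past 2-fold were 674 higher (7.11%) and 929 lower (9.81%). In 33.2% of genes both HDACi-CFC libraries lay above both Veh-CFC libraries, and in 35.3% below. Levels below are CPM after TMM scaling, which sets the bulk of genes equal. The median fold change of all tested genes was -0.01 on the log2 scale with it, and scaling by library size alone moved every fold change by -0.347 and scaling per nucleus by -0.525. Library-size scaling gave 852 higher and 2977 lower calls and per nucleus scaling 385 and 3515, so the direction of every gene group below is relative to the bulk of genes. Without Veh-CFC replicate 2 the TMM calls were 1970 in all and 798 lower, without Veh-CFC replicate 1 944 lower, and DESeq2 made 1199 calls, 889 higher and 310 lower. A change in level and a change in which nuclei pass the gate cannot be told apart.

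Other cells' markers moved between the CFC groups as well. The 6 astrocyte markers summed to 672 and 525 unscaled CPM in HDACi-CFC members and 456 and 231 in Veh-CFC members, and each of the 6 had the higher mean in HDACi-CFC. Excitatory neuron markers outside the gate summed to 653 and 488 CPM in HDACi-CFC and 372 and 350 CPM in Veh-CFC, and endothelial markers to 41.7 and 44.1 CPM in HDACi-CFC and 13.9 and 10.9 CPM in Veh-CFC. Dentate granule markers were lower, at 477 and 535 CPM in HDACi-CFC and 630 and 652 CPM in Veh-CFC, as were interneuron markers outside the gate, at 2446 and 2564 CPM in HDACi-CFC and 2613 and 2668 CPM in Veh-CFC. Their part in the results was not tested, except where a fit on the members with no astrocyte-marker UMI (198 and 298 nuclei in HDACi-CFC, 275 and 316 in Veh-CFC) is given. That fit, chosen after seeing the data, tested 7915 genes and called 1250 higher and 1005 lower.

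The 10 largest rises among well-expressed genes were led by Mertk and Tgfbi. Mertk, a receptor that takes up apoptotic cells and synapses, had 74.6 and 50.1 CPM in HDACi-CFC and 14.6 and 6.42 CPM in Veh-CFC (log2 fold change 2.58, SE 0.36, adjusted p = 8.1e-05). Its UMIs sat in few nuclei, 42 and 48 UMIs in 14 and 14 nuclei of HDACi-CFC and 15 and 9 UMIs in 6 and 7 nuclei of Veh-CFC. Among astrocytes gated in the same way Mertk had 1927 and 1943 unscaled CPM in HDACi-CFC and 1352 and 1452 in Veh-CFC, and in members with no astrocyte-marker UMI it was too low to be tested. Tgfbi, a secreted matrix protein induced by TGF-beta, had 83.5 and 52.2 CPM in HDACi-CFC and 9.72 and 13.6 CPM in Veh-CFC (log2 fold change 2.44, SE 0.33, adjusted p = 5.1e-05). Unlike Mertk, it was near 0 in astrocytes, at 0 and 3.43 unscaled CPM in HDACi-CFC and 1.71 and 1.46 in Veh-CFC.

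Genes with more UMIs rose by about as much. Gng7, a G protein gamma subunit, had 348 and 276 CPM in HDACi-CFC and 80.7 and 72.0 CPM in Veh-CFC (log2 fold change 2.02, SE 0.16, adjusted p = 6.9e-07). Frmd8, which stabilises the rhomboid-like iRhom proteins, had 300 and 285 CPM in HDACi-CFC and 85.6 and 72.0 CPM in Veh-CFC (log2 fold change 1.90). Gpd1, the cytosolic glycerol-3-phosphate dehydrogenase, had 133 and 188 CPM in HDACi-CFC and 37.9 and 39.2 CPM in Veh-CFC (log2 fold change 2.08, SE 0.21, adjusted p = 3.2e-06). In all 3 the lowest HDACi-CFC library was more than 3 times the highest Veh-CFC library, in genes picked for large rises without overlap. Nfic, a CCAAT-box transcription factor, had 124 and 125 CPM in HDACi-CFC and 30.1 and 27.1 CPM in Veh-CFC (log2 fold change 2.13). The remaining 4 rose by 1.87 to 2.21 on the log2 scale. They were Poc1a, a centriole protein, Synpo, an actin-binding protein of dendritic spines and podocytes, the cytochrome P450 Cyp3a13 and Lpcat2, an enzyme of phospholipid remodelling.

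The genes with the largest falls were less familiar in oligodendrocytes. Gatsl2, related to the arginine sensor CASTOR1, had 7.11 and 5.22 CPM in HDACi-CFC and 52.5 and 42.1 CPM in Veh-CFC (log2 fold change -2.95, SE 0.39, adjusted p = 4.5e-05). Heatr5a had 5.33 and 8.35 CPM in HDACi-CFC and 55.4 and 39.9 CPM in Veh-CFC (log2 fold change -2.68). Ecd, a partner of the pre-mRNA splicing machinery, had 8.89 and 9.39 CPM in HDACi-CFC and 57.4 and 52.8 CPM in Veh-CFC (log2 fold change -2.56, SE 0.33, adjusted p = 3.3e-05). Both HDACi-CFC libraries lay below both Veh-CFC libraries in all 3, which was a condition for naming them. Rasa2, a GTPase-activating protein for Ras, fell by 2.29 on the log2 scale, at 12.4 and 9.39 CPM in HDACi-CFC and 50.6 and 53.5 CPM in Veh-CFC. Falls of 1.96 to 2.01 on the log2 scale were seen in Cnnm2, a magnesium transport protein, the zinc finger gene Zfp398, the chromatin remodelling factor Cecr2, the spliceosome component Ctnnbl1 and Vkorc1l1. These 19 named genes kept their call and direction in every alternative that tested them.

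**Figure D3:**
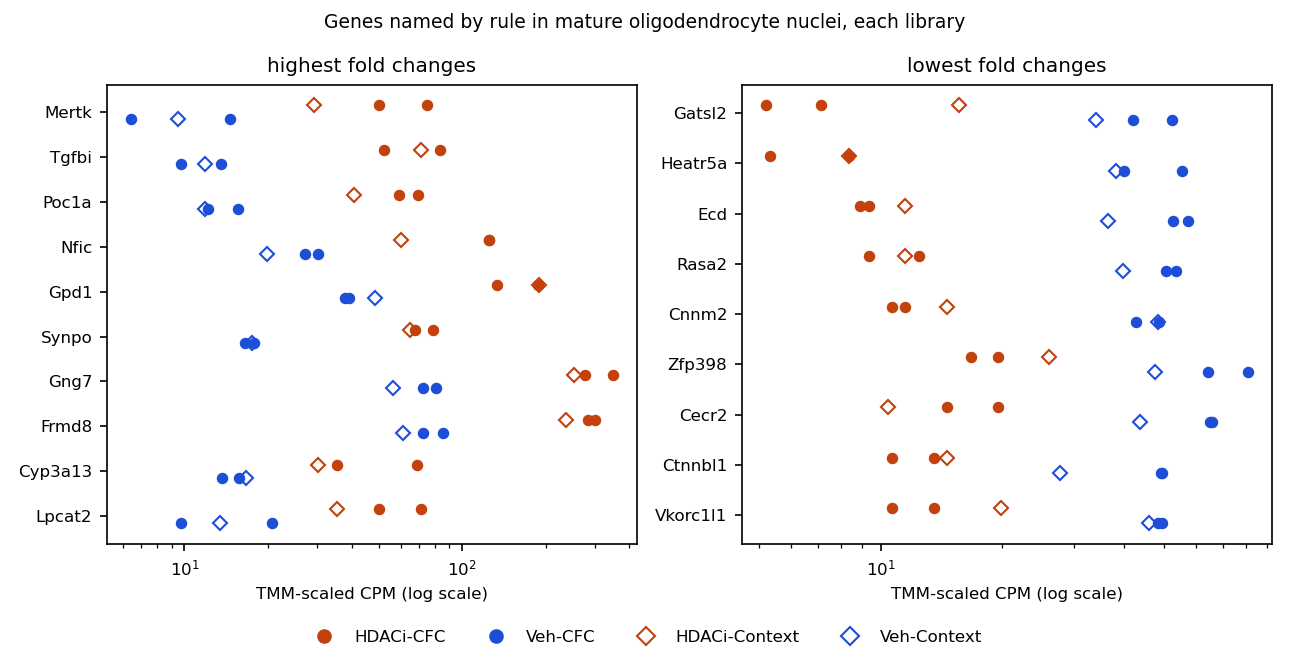
CPM after TMM scaling (log axis) of the 10 genes with the largest rise and of 9 of the 10 with the largest fall in CFC, with 1 symbol per library, orange above for HDACi and blue below for Veh, filled for CFC and open for Context. Gng7 lies at 276 to 348 CPM in HDACi-CFC and 72.0 to 80.7 CPM in Veh-CFC, and Ecd at 8.89 to 9.39 CPM in HDACi-CFC and 52.8 to 57.4 CPM in Veh-CFC.

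Promoter sequences of a riser and a faller are shown to let the reader compare them. Both are the 300 bases from 250 before to 50 after RefSeq's gene start on the gene's own strand, from RefSeq on GRCm38.p6. The gene spans are GENCODE M21's, whose start of Tgfbi lies upstream of RefSeq's. Tgfbi lies on chromosome 13 from 56609523 to 56639562 (plus strand), with its window at chr13:56609336-56609635. Ecd lies on chromosome 14 from 20319852 to 20348121 (minus strand), with its window at chr14:20348072-20348371. Capitals mark CGGAAG on either strand, the core that ETS-family factors bind.
Tgfbi: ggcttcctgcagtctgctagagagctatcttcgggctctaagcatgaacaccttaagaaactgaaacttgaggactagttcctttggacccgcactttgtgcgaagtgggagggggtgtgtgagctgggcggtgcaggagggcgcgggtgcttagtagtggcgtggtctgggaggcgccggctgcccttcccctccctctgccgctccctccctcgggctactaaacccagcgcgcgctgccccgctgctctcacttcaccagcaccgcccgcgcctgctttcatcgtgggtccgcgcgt
Ecd: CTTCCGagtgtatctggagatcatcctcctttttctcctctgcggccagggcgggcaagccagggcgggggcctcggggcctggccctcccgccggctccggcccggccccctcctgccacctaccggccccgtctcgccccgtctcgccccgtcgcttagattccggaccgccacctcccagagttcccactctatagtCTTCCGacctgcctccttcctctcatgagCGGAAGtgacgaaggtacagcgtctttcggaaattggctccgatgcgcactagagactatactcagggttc
The Ecd window held 3 matches and the Tgfbi window 0. The windows of the riser Mertk and the faller Heatr5a, which are not printed, held 0 each, so the printed pair is not typical. The motif was the only one searched. Over genes with exactly 1 promoter window, the motif was present in 21.0% of 903 genes called higher and 42.1% of 948 called lower. It was present in 36.0% of 3817 not called and in 34.65% of all 5668 tested genes. Over all 22862 such windows, of genes tested or not, the share was 17.1%. Among the 10 largest rises 1 of 7 genes with 1 window held it, and among the 10 largest falls 2 of 7. The shares describe these windows, and no test was run on them.

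Genes of the myelin sheath rose together after CI-994. Of 15 tested myelin protein genes outside the gate, 12 were higher in HDACi-CFC and 0 lower, with a median log2 fold change of 0.50. The median of all tested genes was -0.01, and 18.3% of them were called higher and 15.1% lower. Over the 3834 tested genes with at least 100 UMIs in the Context pair the median was 0.22. Of those, 1248 were called higher and 494 lower. The same values stand beside every list below. Mbp, the basic protein that compacts the sheath, had 7900 and 7109 CPM in HDACi-CFC and 3426 and 3607 CPM in Veh-CFC (log2 fold change 1.09, SE 0.07, adjusted p = 1.6e-07). Opalin had 675 and 777 CPM in HDACi-CFC and 326 and 345 CPM in Veh-CFC (log2 fold change 1.12, adjusted p = 3.8e-06). In both the groups stood a factor of about 2 apart with no overlap. Gpm6b, a membrane proteolipid, rose by 1.02 on the log2 scale, Pllp, a plasmolipin of myelin membranes, by 0.98, and Plxnb3, a semaphorin receptor, by 0.65. Of the same 15 genes, 4 rose under library-size scaling and 3 per nucleus, with 0 lower in each.

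The transcription factors that hold the oligodendrocyte programme were higher too. Of 25 tested, 13 rose and 0 fell, with a median log2 fold change of 0.72. Olig2, a basic helix-loop-helix factor of the whole lineage, had 123 and 150 CPM in HDACi-CFC and 55.4 and 50.6 CPM in Veh-CFC (log2 fold change 1.39, adjusted p = 5.6e-05). Sox10, which drives myelin genes directly, had 1006 and 809 CPM in HDACi-CFC and 424 and 395 CPM in Veh-CFC (log2 fold change 1.14, adjusted p = 4.4e-06). In both factors the groups did not overlap. Olig1 rose by 1.26 and Zfp536, a zinc finger repressor, by 1.07 on the log2 scale. Myrf, which starts the myelin gene programme, rose by 1.07 and was named after its values were seen. Id4, an inhibitor of differentiation, rose by 1.18 at 28.4 and 25.0 CPM in HDACi-CFC and 12.6 and 10.7 CPM in Veh-CFC. Sox6, which keeps precursors immature, rose by 1.34 (adjusted p = 0.018) and lost its call without HDACi-CFC replicate 1 (log2 fold change 0.76, adjusted p = 0.18). Under library-size scaling 10 of the list rose and 3 fell, and per nucleus 5 rose and 3 fell.

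Among enzymes of myelin lipids more genes rose than fell. Of 22 tested enzymes of myelin lipids outside the gate, 8 rose and 2 fell, with a median log2 fold change of 0.34. Acsl3, which activates fatty acids, rose by 1.20, the elongase Elovl5 by 0.99 and Enpp2, which makes lysophosphatidic acid, by 0.71 on the log2 scale. Sptlc1, a subunit of the first enzyme of sphingolipid synthesis, had 16.0 and 21.9 CPM in HDACi-CFC and 43.8 and 39.2 CPM in Veh-CFC (log2 fold change -1.07, adjusted p = 0.012), and Sgms1, a sphingomyelin synthase, fell by 0.70. This split became 3 higher and 4 lower under library-size scaling and 1 and 5 per nucleus. In cholesterol synthesis, 0 of 18 tested genes rose and 3 fell, a share near the 15.1% of all tested genes that fell, with a median log2 fold change of -0.51. Idi1, which isomerises the isoprene unit of the pathway, was among them, with a log2 fold change of -1.33. The 3 calls were at low counts and none was made by DESeq2 or without nuclei holding an astrocyte-marker UMI, while library-size scaling gave 8 falls and scaling per nucleus 12.

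Junction, cytoskeleton and support genes followed the myelin proteins. Among paranode and junction genes 13 of 22 rose and 1 fell, with a median log2 fold change of 0.44. Nfasc, whose glial form anchors myelin at the paranode, had 1973 and 1732 CPM in HDACi-CFC and 850 and 937 CPM in Veh-CFC (log2 fold change 1.05, adjusted p = 1.5e-06). The adhesion molecules Nrcam and Ncam1 rose by 0.95 and 0.76, Gjc3, a connexin of oligodendrocytes, by 0.90 and Ninj2 by 0.75, while the scaffold Mpdz fell by 0.74 on the log2 scale. Per nucleus 1 gene rose and 1 fell. Among genes of the cytoskeleton and of the transport of myelin mRNA, 13 of 22 rose and 0 fell, with a median log2 fold change of 0.48. Tppp, which seeds microtubules at Golgi outposts of oligodendrocytes, rose by 1.02, the septin Sept8 by 1.05, the motor protein Kif1b by 0.90, Tubb4a, the tubulin mutated in a human leukodystrophy, by 0.89, Hnrnpa2b1, which binds Mbp mRNA, by 0.83 and the actin-severing Gsn by 0.61. Library-size scaling gave 7 rises and 2 falls there, and per nucleus the direction flipped to 0 rises and 3 falls.

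Metabolic support genes were higher in 10 of 17 cases and lower in 0, with a median log2 fold change of 0.64. Beside Gpd1, Glul, the glutamine synthetase, had 622 and 557 CPM in HDACi-CFC and 247 and 264 CPM in Veh-CFC (log2 fold change 1.20, adjusted p = 3.1e-06). The glucose transporter Slc2a1 rose by 1.19, the potassium channel Kcnj10 by 1.06 and Pdk4, a kinase that limits pyruvate oxidation, by 1.03 on the log2 scale. Slc1a2, the glutamate transporter that also serves as an astrocyte marker, had 364 and 291 CPM in HDACi-CFC and 186 and 57.1 CPM in Veh-CFC (log2 fold change 1.48, adjusted p = 0.0022). Library-size scaling gave 5 rises and 2 falls in this list, and per nucleus scaling 4 and 2.

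Receptors and signalling proteins were mostly higher. Of 33 tested, 20 rose and 1 fell, with a median log2 fold change of 0.59. Notch1, a receptor that holds precursors back from differentiating, had 35.5 and 24.0 CPM in HDACi-CFC and 3.89 and 2.85 CPM in Veh-CFC (log2 fold change 3.07, adjusted p = 0.00015), with its UMIs in 15 and 20 nuclei in HDACi-CFC and 4 and 4 in Veh-CFC. Fgfr3 had 28.4 and 19.8 CPM in HDACi-CFC and 5.83 and 3.57 CPM in Veh-CFC (log2 fold change 2.32), and the adhesion receptor Adgrg1 rose by 2.05. All 3 had few UMIs, and neither Notch1 nor Fgfr3 was high enough to be tested without nuclei holding an astrocyte-marker UMI. Sema4d, a guidance ligand of oligodendrocytes, rested on more, with 451 and 426 CPM in HDACi-CFC and 135 and 132 CPM in Veh-CFC (log2 fold change 1.71, adjusted p = 4.1e-07). Il33, a nuclear cytokine, had 1020 and 1126 CPM in HDACi-CFC and 427 and 457 CPM in Veh-CFC (log2 fold change 1.28). Grin2a, an NMDA receptor subunit, had 347 and 132 CPM in HDACi-CFC and 98.2 and 106 CPM in Veh-CFC, and it was no longer called without HDACi-CFC replicate 1 (log2 fold change 0.37, adjusted p = 0.16). The gene that fell was the glutamate receptor Grm3, named after its values were seen, by 0.40 on the log2 scale. Library-size scaling gave 14 rises and 4 falls, and per nucleus scaling 6 and 4.

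Stage and subtype genes did not move as a block. Of 11 tested differentiation-stage genes 3 rose and 2 fell, where 18.3% of all tested genes rose and 15.1% fell. Bcas1, a marker of early myelinating cells, had 1491 and 1526 CPM in HDACi-CFC and 573 and 729 CPM in Veh-CFC (log2 fold change 1.21, adjusted p = 1.4e-06), Rnf122, a ubiquitin ligase, rose by 1.79 and Frmd4a by 0.94. Against them 9630013A20Rik, a non-coding RNA of newly formed oligodendrocytes, fell by 2.15 with 58 and 28 of its Veh-CFC UMIs in 1 nucleus of each library, and Cnksr3 fell by 1.04. Among 18 genes of mature subtypes 9 rose and 1 fell, with a median log2 fold change of 0.46. Neat1, the nuclear RNA that builds paraspeckles, had 2392 and 2297 CPM in HDACi-CFC and 830 and 797 CPM in Veh-CFC (log2 fold change 1.53, SE 0.09, adjusted p = 2.9e-08). The gene that fell was Grm3 again. Hopx rose by 1.41, S100b by 1.14 and Apod, a lipid-binding lipoprotein, by 0.68 on the log2 scale. With library-size scaling the stage genes stood at 3 higher and 5 lower and the subtype genes at 6 and 2. Per nucleus they stood at 2 and 5 and at 4 and 3.

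The drug's targets themselves were not called. Hdac1 had 64.0 and 64.7 CPM in HDACi-CFC and 39.9 and 63.5 CPM in Veh-CFC (log2 fold change 0.28, adjusted p = 0.38). The log2 fold change was -0.31 in Hdac2 (adjusted p = 0.51) and -0.63 in Hdac3 (adjusted p = 0.10). Hdac8 had a log2 fold change of -0.18 (adjusted p = 0.47). The sign of Hdac1 flipped under library-size and per nucleus scaling, where 2 of these 4 genes were called lower. Of 12 other deacetylases and sirtuins 4 rose and 1 fell, beside 18.3% and 15.1% of all tested genes. Hdac7, of class IIa, had 251 and 217 CPM in HDACi-CFC and 76.8 and 69.9 CPM in Veh-CFC (log2 fold change 1.66, adjusted p = 2.7e-06). Hdac5 rose by 1.09, Hdac11 by 0.60 and the tubulin deacetylase Sirt2 by 0.33, and Sirt1 fell by 1.18 on the log2 scale. This list turned to 2 higher and 3 lower under library-size scaling and to 1 and 3 per nucleus.

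The enzymes that add acetyl groups went down in part. Of 15 acetyltransferase genes 1 rose and 6 fell, with a median log2 fold change of -0.27. Ep300 had 58.6 and 64.7 CPM in HDACi-CFC and 142 and 101 CPM in Veh-CFC (log2 fold change -0.94, adjusted p = 0.0032), and its close relative Crebbp had 137 and 134 CPM in HDACi-CFC and 253 and 206 CPM in Veh-CFC (log2 fold change -0.76, adjusted p = 0.0017). Kat6b fell by 1.01, Hat1 by 1.00 and Taf1 by 0.72, and the coactivator Ncoa2 rose by 0.76 on the log2 scale. Under library-size scaling 1 rose and 7 fell, and per nucleus 0 rose and 8 fell. Genes of the corepressor complexes that carry class I enzymes were split, with 8 of 24 higher, 3 lower and a median of -0.01. Over all tested genes 18.3% were higher and 15.1% lower. The NuRD subunits Chd3, Chd4 and Mta3 rose by 1.46, 1.12 and 0.86 on the log2 scale, while the CoREST and Sin3 scaffolds Rcor1 and Sin3a fell by 0.96 and 0.95. This split turned to 5 higher and 8 lower under library-size scaling and to 3 and 9 per nucleus.

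Genes that respond to signals from outside were mostly higher. Of 19 tested glucocorticoid-responsive genes 12 rose and 0 fell, with a median log2 fold change of 1.03. Beside Mertk, the EGF receptor inhibitor Errfi1 rose by 1.48, the stress gene Ddit4 by 1.33, the NF-kappaB inhibitor Nfkbia by 1.07 and the arrestin-domain gene Arrdc2 by 1.06. Tsc22d3, the leucine zipper induced by glucocorticoids, had 460 and 619 CPM in HDACi-CFC and 264 and 240 CPM in Veh-CFC (log2 fold change 1.12, adjusted p = 2.5e-05). The counts were 10 higher and 1 lower under library-size scaling and 6 and 1 per nucleus. Immediate early genes were scarce, and 8 of 24 could be tested. Ier5, Btg2 and Nr4a1 rose by 1.60, 1.48 and 1.16 with 4.28 to 25.0 CPM in the 4 libraries, and 0 of them was called by DESeq2.

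Genes known as induced by HDAC inhibitors in other cells rose in 6 of 12 tested cases outside the gate and fell in 0, with a median log2 fold change of 0.65. H1f0, a linker histone, had 37.3 and 45.9 CPM in HDACi-CFC and 7.78 and 10.7 CPM in Veh-CFC (log2 fold change 2.15, adjusted p = 0.00024). The metallothioneins Mt2 and Mt1 rose by 1.04 and 0.84, Nefl by 0.84, Clu by 0.83 and Stmn4 by 0.43, which flipped to -0.10 per nucleus. Among neuronal genes that the repressor REST keeps silent outside neurons, 12 of 31 rose and 0 fell, with a median log2 fold change of 0.69. Bdnf, a growth factor, had 44.4 and 49.0 CPM in HDACi-CFC and 18.5 and 19.3 CPM in Veh-CFC (log2 fold change 1.31, adjusted p = 0.0022). Gap43 rose by 1.32, Syn2 by 1.20, Grin2a by 1.14, Nrxn3 by 1.13 and Chgb by 1.08 on the log2 scale. Of the Nrxn3 UMIs 66 lay in 1 nucleus of HDACi-CFC replicate 1 and 64 in 1 nucleus of Veh-CFC replicate 2. Of the Grin2a UMIs 62 lay in 1 nucleus of HDACi-CFC replicate 1, the library without which its call was lost. DESeq2 called 5 of the 31, and in the same nuclei excitatory neuron markers were higher in HDACi-CFC and dentate granule and interneuron markers lower, as given above. Among the 12 HDAC inhibitor-induced genes outside the gate, 2 rose and 1 fell under library-size scaling.

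**Figure D4:**
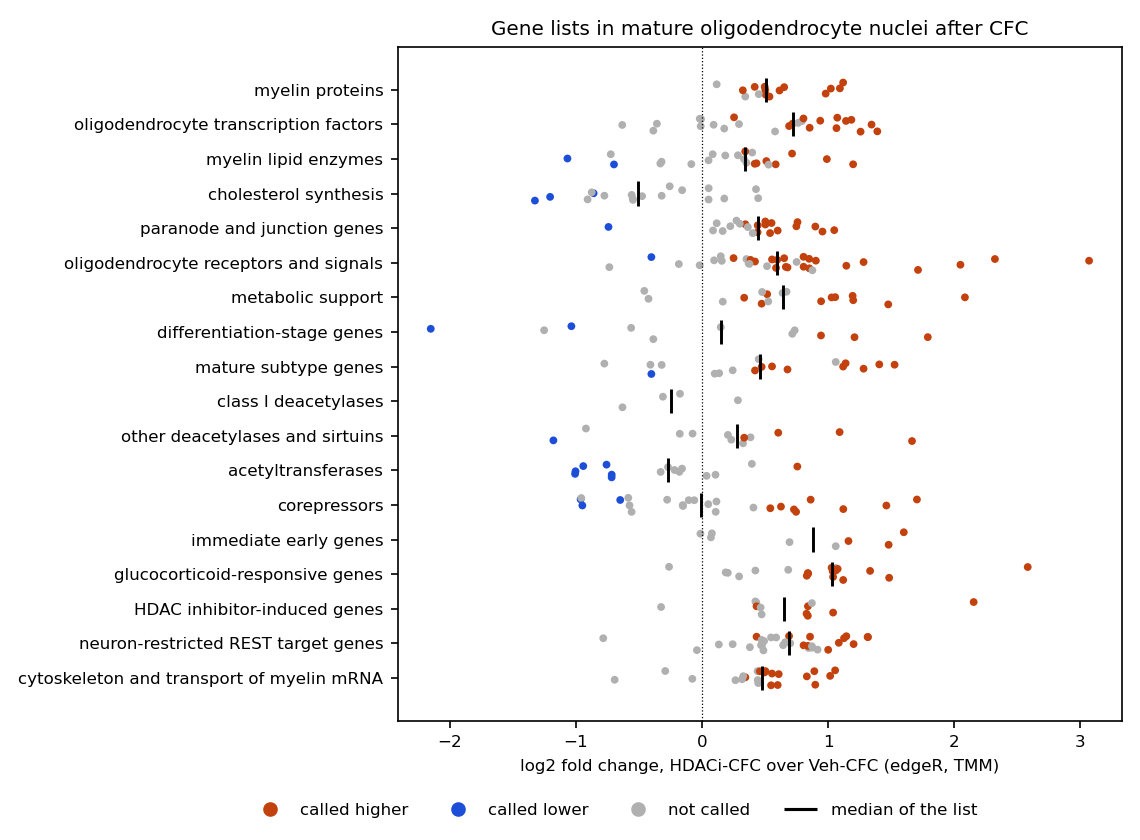
Log2 fold change, HDACi-CFC over Veh-CFC after TMM scaling, of each tested gene outside the gate in the 18 gene lists, with 1 point per gene (orange called higher, blue called lower, grey not called) and a black bar at the list's median. The medians run from -0.51 for cholesterol synthesis to 1.03 for glucocorticoid-responsive genes, and that of all tested genes is -0.01. It is 0.22 over the 3834 tested genes with at least 100 UMIs in the Context pair.

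The Context mice showed the drug without shock, with 1 library per group and so no test. Of 3837 genes with at least 100 UMIs in the 2 libraries, 306 were more than 2-fold higher in HDACi-Context (7.97%) and 155 more than 2-fold lower (4.04%). Library-size scaling turned this to 93 higher and 380 lower, and per nucleus scaling to 118 and 329. Of 1248 such genes called higher in CFC, 1192 were also higher in HDACi-Context than for the library labelled Veh-Context. For 1024 of them the 95% counting interval lay above 0. Of 494 called lower in CFC, 477 were lower and 351 had an interval below 0. Over all 3837 genes, 2415 were higher in HDACi-Context, with 1500 intervals above 0 and 607 below 0. The direction in members from the library labelled Veh-Context thus went with its title. Outside the gate, 14 of 14 such myelin protein genes were higher with every interval above 0 (median log2 ratio 0.73, against 0.21 over all 3837 genes). Mbp had 8037 CPM in HDACi-Context and 3269 CPM in the library labelled Veh-Context, a log2 ratio of 1.30 (1.24 to 1.35), and Opalin 693 and 309 CPM in the same order. Neat1 had 1849 CPM in HDACi-Context and 714 CPM in the library labelled Veh-Context.

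The named genes mostly kept their side in Context. All 10 risers were higher in HDACi-Context, with log2 ratios from 0.86 in Cyp3a13 (interval from 0.00 to 1.74) to 2.58 in Tgfbi (1.75 to 3.49). The 9 named fallers were lower, from -2.19 in Heatr5a to -0.87 in Zfp398. The riser Mertk rested on few nuclei. It was seen in 5 nuclei of HDACi-Context, with up to 11 UMIs in 1 nucleus. In the library labelled Veh-Context it was seen in 6, with up to 5 UMIs. Acetyltransferase genes had 6 intervals below 0 and 1 above among 11 genes, beside 607 below and 1500 above among all 3837 genes. Ep300 had 37.5 CPM in HDACi-Context and 83.2 CPM in the library labelled Veh-Context. Low counts left some CFC rises unresolved in Context. Fgfr3 had 6.25 CPM in HDACi-Context and 3.96 CPM in the library labelled Veh-Context, with an interval of the log2 ratio from -1.32 to 2.71 that holds its CFC fold change of 2.32. Id4 had 10.4 CPM in HDACi-Context and 23.8 CPM in the library labelled Veh-Context, and its difference from CFC was not tested. Among the highest ratios of the Context pair were Abhd14b at 2.38, Gng7 at 2.17, Traf5 at 2.14 and Rnf122 at 2.08. The lowest were the guidance cue Slit2 at -2.79, Aatf at -2.06, Kpna3 and Rnf169 at -2.04 each and Med13l at -1.96. Slit2 rested on 1 nucleus of the library labelled Veh-Context, which held 123 UMIs.

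**Figure D5:**
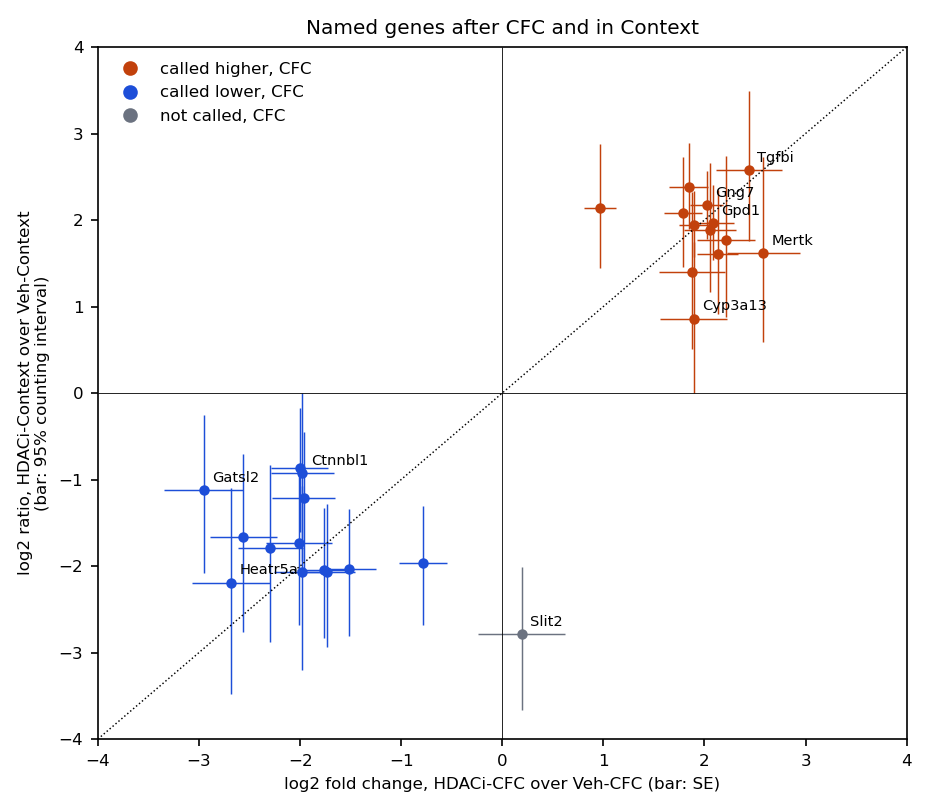
Log2 ratio of HDACi-Context over the library labelled Veh-Context (vertical axis, bars for the 95% counting interval) against the log2 fold change of HDACi-CFC over Veh-CFC (horizontal axis, bars for the SE) of genes named by rule for CFC and Context, coloured by their CFC call, with a dotted line of equal values. The 10 CFC risers lie above 0 and the 9 named fallers below 0 on the vertical axis, while Slit2 sits near 0 on the horizontal axis.

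Whether members responded unlike other cells was tested as a difference of fold changes within the 4 CFC libraries, with library as a block. Taken alone, precursors had 23.4% of 5425 genes called, astrocytes 19.1% of 8868 and the other kept nuclei 47.1% of 19957, where members had 33.4%. Each CFC library held 67 to 93 precursors, 170 to 260 astrocytes, 323 to 481 members and 3387 to 4619 other nuclei. With sets of such unlike size, these shares do not compare how widely the classes responded. Against oligodendrocyte precursors, 66 genes had a more positive response in members (0.735% of 8979 tested) and 159 a more negative one (1.77%), 2.51% together, by edgeR's quasi-likelihood test with Benjamini-Hochberg adjustment. Tdrd7, of RNA granules, fell by 2.38 in members and rose by 1.74 in precursors (difference -4.35, SE 0.62, adjusted p = 0.00059). Csnk2a2, a catalytic subunit of casein kinase, fell by 1.05 in members and rose by 1.77 in precursors (difference -2.99, adjusted p = 0.00024), and the guidance cue Sema3d fell by 1.89 in members and rose by 0.84 in precursors (difference -2.92). In these 3 the classes moved in opposite directions. Snx24 went the other way, with a fold change of 0.27 in members (adjusted p = 0.22) and a fall of 2.62 in precursors (difference 2.72). In the 15 myelin protein genes outside the gate, 0 differences from precursors were called and the median difference was 0.01. Precursors held few of some of these transcripts, with 0 to 13.7 unscaled CPM of Ermn over the 6 libraries, and the SE of the difference ran from 0.19 in Gpm6b to 1.65 in Ermn, so the lack of calls does not show a like response. Without Veh-CFC replicate 1 there were 109 more positive and 69 more negative responses, without Veh-CFC replicate 2 144 calls in all and 57 more negative, and without HDACi-CFC replicate 2 103 more positive. With TMM factors taken within each class there were 87 and 85.

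Against the other kept nuclei, 1354 genes had a more positive response in members (7.25% of 18668 tested) and 440 a more negative one (2.36%), 9.61% together. Leaving out a library changed this split, to 466 and 832 without HDACi-CFC replicate 1, 319 and 584 without HDACi-CFC replicate 2, 724 and 245 without Veh-CFC replicate 1 and 724 and 152 without Veh-CFC replicate 2, and library-size scaling gave 676 and 841. The test shares its estimate of spread among genes. With 4 libraries the p-values of this fit therefore do not rest on each gene's own spread between libraries. Paxx, of DNA end joining, rose by 1.48 in members and fell by 0.94 in the others (difference 2.52, SE 0.15, adjusted p below 0.05 by edgeR's quasi-likelihood test). Cab39l, a scaffold of the kinase LKB1, rose by 0.86 in members and fell by 1.29 in the others, and the kinase Tesk2 rose by 0.63 and fell by 1.42 in the same order. Snx7, a sorting nexin, fell by 2.35 in members and rose by 0.91 in the others (difference -3.20), and Fam13a fell by 1.42 and rose by 0.70 in the same order. These 5 genes had opposite directions in members and in the mixed other cells. Against astrocytes, 141 genes had a more positive response in members (1.32% of 10643 tested) and 42 a more negative one (0.395%), 1.72% together, but 0 genes were called by edgeR without HDACi-CFC replicate 1, where 1316 had an unadjusted p below 0.05, and 10 without HDACi-CFC replicate 2. Without Veh-CFC replicate 2 there were 320. Rasa2 fell by 2.29 in members and rose by 0.59 in astrocytes (difference -2.76, adjusted p = 0.0055). Gatsl2 was among the 5 most negative differences in each of the 3 comparisons, at -3.20 against precursors, -2.23 against astrocytes and -2.58 against the other nuclei.

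Treatment also went with how evenly a transcript was spread among members. Tmeff2, a transmembrane protein with follistatin-like domains, was singled out after its values were seen, and no test was run on it. At 1500 UMIs per nucleus a member held a mean of 6.23 and 6.17 Tmeff2 UMIs in HDACi-CFC and 6.34 and 6.08 in Veh-CFC, and 6.61 in HDACi-Context and 5.08 in the library labelled Veh-Context. The mean was thus alike in CFC while the spread was not. The variance over the mean was 6.995 and 7.943 in HDACi-CFC, 2.69 and 2.97 in Veh-CFC, 7.75 in HDACi-Context and 2.84 in the library labelled Veh-Context. At least 15 UMIs were held by 11.5% and 10.9% of members in HDACi-CFC, 3.04% and 4.16% in Veh-CFC, 11.6% in HDACi-Context and 2.88% in the library labelled Veh-Context. At the other end, 7.38% and 8.43% of members held 0 in HDACi-CFC, 1.66% and 2.41% in Veh-CFC, 8.29% in HDACi-Context and 5.52% in the library labelled Veh-Context. Astrocytes thinned in the same way held 0 in 89.94% to 95.65% of nuclei over the 6 libraries. Both tails of the members were fuller with CI-994, and every HDACi library lay above every Veh library in both. Of 805 genes with a mean of at least 0.2 UMIs in every library, 91 had a higher variance over the mean in every HDACi library than in every Veh library and 30 a lower one. The lowest HDACi value over the highest Veh value was 2.35 for Tmeff2 and 1.38 for the next gene, Lsamp. Members with no astrocyte-marker UMI gave 7.52 and 7.24 in HDACi-CFC, 2.97 and 3.39 in Veh-CFC, 7.32 in HDACi-Context and 2.83 in the library labelled Veh-Context. Other kept nuclei held a mean of 0.812 and 0.824 Tmeff2 UMIs in HDACi-CFC and 0.855 and 0.928 in Veh-CFC. They showed the same order, with 5.95 and 4.17 in HDACi-CFC and 2.25 and 2.62 in Veh-CFC. Among them, Enpp6-positive nuclei gave 8.62 and 5.07 in HDACi-CFC and 1.47 and 2.05 in Veh-CFC. Their values were 7.69 in HDACi-Context and 2.87 in the library labelled Veh-Context. In HDACi-CFC, 17 and 14 other kept nuclei held at least 15 UMIs, and 12 and 7 of these were Enpp6-positive.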

How the data were processed

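Raw UMI counts per gene and nucleus barcode were used as deposited by the authors. Per the file headers they came from Cell Ranger 3.0.1 (CFC libraries) and 3.0.2 (Context libraries), and per the submitters' processing notes from build mm10 with Seurat 4.0.3 used later. Whether intron reads were counted is not given in the sources used here. The files list called barcodes only, so free RNA was not measured. Gene IDs were placed with GENCODE M21 (30934 of 31053, 99.6%). UMIs were summed per library over members, and over precursors, astrocytes and other kept nuclei gated from raw UMIs.

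Drug effects in CFC were tested with edgeR 4.0.16 in R 4.3.3 (filterByExpr, TMM, two-sided quasi-likelihood F test, Benjamini-Hochberg adjustment over all genes tested, threshold 0.05), with DESeq2 1.42.0 as an alternative. Differences between classes were interaction terms with library as a block. The Context pair has log2 ratios with exact 95% counting intervals. Thinning drew 1500 UMIs from each kept nucleus that held at least as many, and shallower nuclei were left out (seed 1). Doublets were called by Scrublet in scanpy 1.11.5 (expected rate 0.06). The scripts were tested on simulated data.

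Genes named by rule were the 10 highest and 10 lowest log2 fold changes among called genes whose groups did not overlap and whose average log2 CPM reached 5, all gate genes, up to 6 called and up to 3 uncalled members per list, the 5 highest and 5 lowest differences per class comparison, the 20 leading identity genes and the 5 highest and 5 lowest Context ratios. Gate genes carry no test, nor do the ratios of identity genes over other nuclei. The 781 tested models without a gene name were counted and not named. Some genes that met these rules enter the fits and counts but are not reported here. The members and lists were chosen with earlier results of these data known. Promoter windows are RefSeq's, and genes without one were not searched.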

Additional observations from a re-analysis of the deposited data

Results flagged for a closer look

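The drug's effect differed between members and another class in the following named genes, by the test of the difference of log2 fold changes (HDACi over Veh in CFC, members minus the other class). Against precursors the difference was 3.43 in Usp6nl, 3.42 in Nxpe3, 3.28 in Zfp239, 3.03 in Lig3 and 2.72 in Snx24. It was -4.35 in Tdrd7, -3.20 in Gatsl2, -2.99 in Csnk2a2, -2.92 in Sema3d and -2.75 in Rasa2. The first 4 were too low in precursors to be tested there alone, with 4 CFC libraries of 67 to 93 precursor nuclei. Against astrocytes it was 4.52 in Sox10, 3.40 in Cdr2l, 3.34 in Rnf122, 3.18 in Wdr76 and 2.89 in Hid1, and -2.76 in Rasa2, -2.62 in Ctnnbl1, -2.37 in Senp1, -2.25 in Cecr2 and -2.23 in Gatsl2. Of these 5 positive differences only Wdr76 was high enough in astrocytes to be tested there alone, and 0 of the 10 astrocyte differences was called without HDACi-CFC replicate 1. Against the other kept nuclei it was 2.52 in Paxx, 2.38 in Slc24a4, 2.25 in Slc6a15, 2.24 in Cab39l and 2.15 in Tesk2, and -3.20 in Snx7, -2.58 in Gatsl2, -2.48 in Ttc21b, -2.04 in Fam13a and -2.04 in Sergef. Slc24a4 and Slc6a15 were too low in members to be tested there alone.

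In the following 11 genes called in CFC the Context pair went the opposite way with a counting interval clear of 0. These genes were found by their values, the pair has 1 library per group, and the difference between CFC and Context was not tested. Genes lower in HDACi-CFC but higher in HDACi-Context were Rev1 (log2 ratio in Context 0.668), Etv6 (0.606) and 9630013A20Rik (3.90, with 134 UMIs in 1 nucleus of HDACi-Context). Genes higher in HDACi-CFC but lower in HDACi-Context were Astn2 (-0.408), Cntnap2 (-0.591), Oaz1 (-1.17), Csmd1 (-0.717), Wdr17 (-0.713), Nrg3 (-0.541), Meg3 (-0.632) and Trpm3 (-0.421). For Trpm3, 1 nucleus held 98 of the 176 UMIs in the library labelled Veh-Context, where HDACi-Context had 100 UMIs in all, and for Cntnap2 1 nucleus held 89 of the 201 UMIs in HDACi-CFC replicate 1.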

How the results depend on the processing

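Beside the 3168 CFC calls of edgeR, DESeq2 made 1199 (889 higher, 310 lower), and edgeR made 1932 on the nuclei with no UMI of an excluded marker (1092 and 840). Library-size scaling gave 852 and 2977, and scaling per nucleus 385 and 3515. Leaving out 1 library gave 1970 to 3060 calls, with 798 to 1363 lower. The cause was not tested.

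Deviations of same-numbered replicates from their group means had a correlation of 0.0428. With 2 libraries per group both pairs give the same value by construction. It therefore cannot show whether same-numbered libraries share anything, and the numbers are used here as names only. With a replicate block the CFC calls were 2883 (1622 higher, 1261 lower), the precursor differences 118 (28 and 90), the astrocyte differences 524 (405 and 119) and those from other nuclei 1774 (1337 and 437).

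Precursor differences called more positive were 100 without a filter, and those more negative 90 with library-size scaling and 85 with TMM within each class. Leaving out 1 library gave 144 to 264 in all, 71 to 109 more positive and 57 to 173 more negative. Astrocyte differences were 312 without a filter (192 negative), 463 without doublets (335 and 128), 66 and 71 with library-size scaling and 92 and 66 with TMM within each class. Leaving out 1 library gave 0 to 320 in all, 0 to 237 positive and 0 to 83 negative. Differences from other nuclei were 676 and 841 with library-size scaling, and 876 to 1298 in all, 319 to 724 positive and 152 to 832 negative without 1 library.

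Context counts past 2-fold were 1449 at 30 UMIs (602 and 847), 93 and 380 scaled by library size, and 118 and 329 per nucleus. Member shares moved to 4.54% and 7.33% in HDACi-CFC, 6.37% in HDACi-Context and 8.52% in the library labelled Veh-Context at 1000 genes, and to 10.5% in HDACi-CFC replicate 2 and 11.4% in Veh-CFC replicate 2 after thinning.

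Signs reversed under library-size scaling in Tmeff2 (-0.13), Hdac1 (-0.064) and Sirt2 (-0.015), and per nucleus in Tmeff2 (-0.32), Hdac1 (-0.25), Sirt2 (-0.20) and Stmn4 (-0.10). They also did in Cnksr3 with Enpp6 not used (0.052), 9630013A20Rik with all 6 libraries (0.81) and Hdac8 without 1 library (-0.44 to 0.13). Of 110 named genes, 29 called by edgeR were not called by DESeq2 and 37 lost their call per nucleus. Shallow nuclei limit low genes, and 1 library per Context group leaves no replicate error.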
